A study of Mus musculus with 16 samples.

Results

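The genes described here are 36 genes of glycolysis and of the cellular response to low oxygen, chosen by name: the glycolytic enzymes and, apart from them, genes that the hypoxia-inducible factor HIF regulates or that regulate HIF. They occupied 37 of the 54532 rows of the gene count table, because 2 rows carried the name Aldoa, and all 37 rows passed the filter on low counts. By role they were 15 glycolytic enzymes (16 rows), 3 regulators of glycolytic flux, 3 transporters of glucose or lactate, 3 genes of oxygen sensing and 12 other HIF targets. RNA was read from 16 libraries of mouse colorectal tumours, 2 for each of 8 groups. Each tumour grew from MC38, a mouse colon carcinoma line, after injection into the colon wall of C57BL/6 mice, and came from either a microsatellite-instable (MSI) or a chromosomally instable (CIN) version of the line. What change made each version was not given in the sources used here, so a difference between tumour types is a difference between 2 cell lines. All mice also received bone marrow derived dendritic cells into the peritoneum on days 1, 6 and 12, and the tumours were taken on day 15. The dendritic cells had been exposed with Lipofectamine for 30 minutes to DNA of MSI or CIN cells, in the form of free cytosolic DNA or of micronuclei, which are small nuclear bodies that hold stray chromosomal material. The 8 groups are every combination of tumour type, DNA source and DNA form. Mice with unstimulated dendritic cells or with none were not analysed here. RNA of 3 biological replicates was combined in equal amounts, and whether the 2 libraries of a group are separate pools is not stated, so the p-values rest on a spread between libraries that may in part be technical.

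Glycolysis breaks glucose down to pyruvate in the cytosol, and lactate dehydrogenase and the lactate exporters carry the end products away when pyruvate does not enter the mitochondria. HIF is a pair of an oxygen-labile alpha subunit and a stable partner. With oxygen, prolyl hydroxylases mark the alpha subunit, which is then destroyed. Without oxygen the subunit persists and the pair binds short DNA elements near genes for glucose uptake, glycolysis, pH control, mitophagy and collagen maturation. Many tumours, those of the colon among them, express these genes strongly, in poorly perfused regions and through growth signalling alike. The transcript of Hif1a is a poor measure of the pathway, since the control is mainly on the protein.

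Total counts per library ran from 11561955 to 17937501. Libraries differed in the transcripts of other tissues. The summed level of 16 skeletal muscle markers was 177 to 873 CPM (counts scaled to a common library size with the trimmed mean of M-values, TMM) in 5 libraries and 8.80 to 41.8 CPM in the other 11. The 5 were 1 of the MSI tumours (CIN micronuclei, library 1) and 4 of the CIN tumours (both with MSI micronuclei, and library 2 with MSI free and with CIN free DNA). The 16 colon epithelium markers summed to 811 to 5277 CPM in the 4 MSI tumour libraries numbered 1 and to 10580 to 16823 CPM in the 4 numbered 2, and to 202 to 10629 CPM in the CIN tumours. These are bulk libraries, so a lower share of cells that express a gene and less of its RNA per cell cannot be told apart.

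In MSI tumours 6 of the 37 rows were lower than in CIN tumours and 0 were higher. They were P4ha2, Egln1, Slc16a3, Bnip3, Pdk1 and Tpi1. In the same comparison 3.48% of all 18777 genes tested were lower, 2.32% were higher and 5.8% passed in either direction (edgeR quasi-likelihood test over all 16 libraries, Benjamini-Hochberg adjusted p under 0.05). The log2 fold change, MSI minus CIN, was negative in 28 of the 37 rows, with a median of -0.298, while the median of all genes was 0.0555 and 44.3% were negative. Of the glycolytic enzymes 1 of 16 rows passed and 14 were negative, with a median of -0.337. Of the other members 5 of 21 passed and 14 were negative, with a median of -0.238. The 3 largest differences were those of P4ha2, Bnip3 and Slc16a3. Without MSI tumour library 1 with CIN micronuclei, the muscle-rich library of its tumour type, 13 members passed, and 6.79% of all genes were lower in that fit. In an additive model without all 5 muscle-rich libraries 2 passed, Slc16a3 and Egln1, and 0.527% of all genes were lower. On GRCm38 the 6 genes lie at chr11:54100095-54131665 (P4ha2, plus strand), chr8:124908587-124949324 (Egln1, minus strand), chr11:120948480-120960868 (Slc16a3, plus strand), chr7:138890836-138909519 (Bnip3, minus strand), chr2:71873224-71903858 (Pdk1, plus strand) and chr6:124810586-124814296 (Tpi1, minus strand), all protein-coding, and counts are over whole genes.

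**Figure D1:**
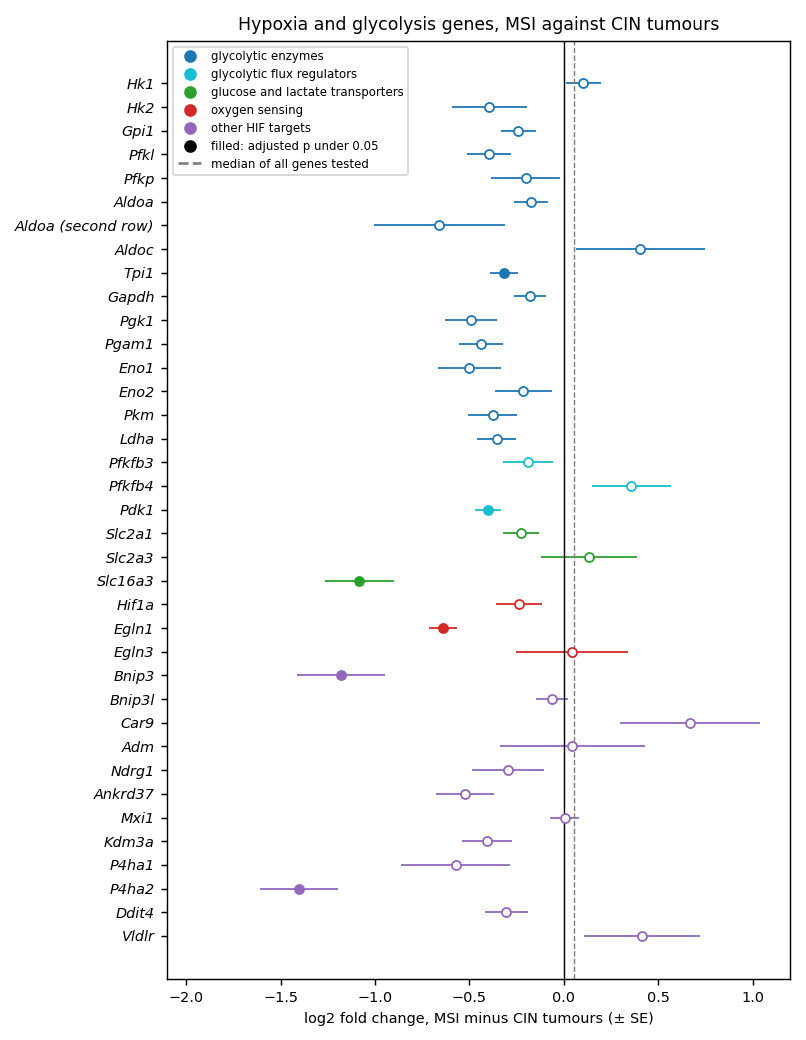
Log2 fold change between MSI and CIN tumours of each of the 37 rows (point, with the standard error as a bar), coloured by role; filled points had a Benjamini-Hochberg adjusted p under 0.05 with edgeR and the dashed line is the median of all genes tested. The 6 filled points lie between -1.40 and -0.32, and 28 of the 37 points lie left of 0.

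P4ha2, the second alpha subunit of the prolyl 4-hydroxylase that modifies collagen in the endoplasmic reticulum, had the largest difference. Its level in MSI tumours was 12.2 CPM at the lowest, 18.9 at the median and 30.0 at the highest of 8 libraries, and in CIN tumours 38.6, 52.3 and 71.1 CPM. The ranges did not overlap. The means were 19.7 ± 6.83 and 52.3 ± 11.01 CPM (SD, n = 8 each), a log2 fold change of -1.40 ± 0.21 (SE), that is 2.65-fold lower in MSI tumours (edgeR adjusted p = 0.00424). Without the 5 muscle-rich libraries its log2 fold change was -1.26 (edgeR adjusted p = 0.0507).

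Egln1 encodes PHD2, the main prolyl hydroxylase that marks HIF alpha subunits and itself a HIF target. It ran from 73.6 through a median of 87.8 to 95.5 CPM in MSI tumours and from 110 through 139 to 151 CPM in CIN tumours. Every MSI library lay below every CIN library. The highest MSI value, 95.5 CPM, was that of the muscle-rich library. The means were 86.4 ± 7.42 and 135 ± 16.1 CPM (SD, n = 8 each), and the log2 fold change was -0.64 ± 0.08 (SE, edgeR adjusted p = 0.00106), the smallest p among the members. Without the 5 muscle-rich libraries its log2 fold change was -0.59, just past the threshold (edgeR adjusted p = 0.0486).

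Slc16a3 encodes MCT4, the lactate exporter of glycolytic cells. It measured 40.8, 65.2 and 102 CPM at the lowest, median and highest MSI library and 108, 150 and 157 CPM in CIN tumours, again without overlap. The highest MSI value, 102 CPM, came from the muscle-rich library. The means were 66.5 ± 20.5 and 141 ± 18.5 CPM (SD, n = 8 each), a log2 fold change of -1.08 ± 0.18 (SE, edgeR adjusted p = 0.00752). Without the 5 muscle-rich libraries the log2 fold change was -1.14 (edgeR adjusted p = 0.0399). Without such overlap, 3 members lay lower in MSI tumours and 0 higher. Of all genes tested 1.88% did so below and 1.23% above, 3.11% in all.

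Bnip3, a mitochondrial outer membrane protein that marks mitochondria for removal, ran from 23.8 through 47.0 to 97.1 CPM in MSI tumours and from 78.9 through 120 to 146 CPM in CIN tumours. Of the 8 MSI libraries 7 lay below the lowest CIN library, and the exception at 97.1 CPM was the muscle-rich one. The means were 53.1 ± 22.6 and 120 ± 23.8 CPM (SD, n = 8 each), and the log2 fold change was -1.18 ± 0.23 (SE, edgeR adjusted p = 0.016). Without the 5 muscle-rich libraries it was -1.19 (edgeR adjusted p = 0.0983).

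Pdk1, a kinase that switches off pyruvate dehydrogenase and so keeps pyruvate out of the citric acid cycle, had 88.7, 98.9 and 120 CPM at the lowest, median and highest MSI library and 115, 134 and 150 CPM in CIN tumours. Here too 7 of 8 MSI libraries lay below all CIN libraries and the exception was the muscle-rich library. The means were 101 ± 10.3 and 133 ± 13.9 CPM (SD, n = 8 each), and the log2 fold change was -0.40 ± 0.07 (SE, edgeR adjusted p = 0.0082). Without the 5 muscle-rich libraries it was -0.44 (edgeR adjusted p = 0.0817).

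Tpi1, triosephosphate isomerase, was the single glycolytic enzyme past the threshold. It measured 491 to 622 CPM in MSI tumours (median 534.5) and 567 to 768 CPM in CIN tumours (median 684), and 6 of 8 MSI libraries lay below the lowest CIN library. The means were 539 ± 42.4 and 673 ± 70.3 CPM (SD, n = 8 each), and the log2 fold change was -0.32 ± 0.08 (SE, edgeR adjusted p = 0.0361). Without the 5 muscle-rich libraries it was -0.305 (edgeR adjusted p = 0.264). It passed in 2 of the 16 fits that left out 1 library each, while P4ha2, Egln1, Slc16a3 and Pdk1 passed in 16 and Bnip3 in 13.

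**Figure D2:**
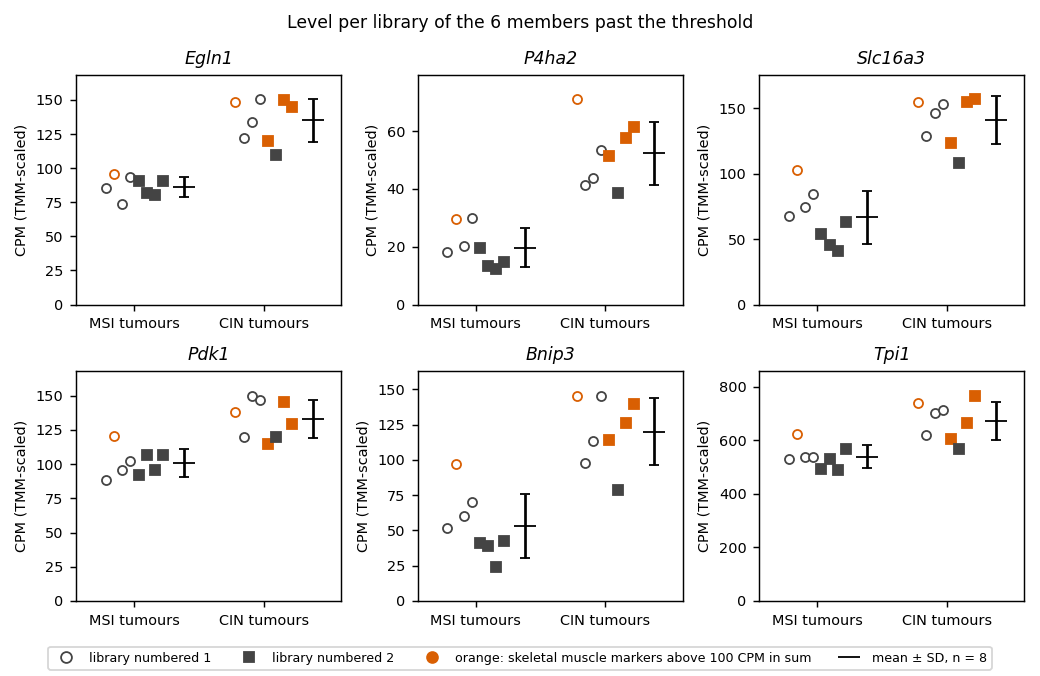
Level (CPM with TMM scaling, linear axes from 0) of the 6 members past the threshold in each library, by tumour type; symbols give the library number within its group, orange marks the 5 libraries with more than 100 CPM of skeletal muscle markers, and the bar is the mean with its SD (n = 8). Egln1, P4ha2 and Slc16a3 do not overlap between tumour types, and in every gene shown except P4ha2 the highest MSI library is the orange one.

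The promoters of these 6 genes are shown because HIF binds DNA at a short core. Windows run from 250 bases before to 50 after a RefSeq transcript start (GRCm38.p6), are written 5′ to 3′ on the strand of the gene, and carry in capitals each match to ACGTG or GCGTG on that strand or to their reverse complements CACGT and CACGC on the other. Where a CACGTG occurs, which also is the E-box read by other factors, the 2 strands of ACGTG overlap. Pdk1, which had 2 windows, is shown at its gene start.
P4ha2 (chr11:54100674-54100973, plus strand): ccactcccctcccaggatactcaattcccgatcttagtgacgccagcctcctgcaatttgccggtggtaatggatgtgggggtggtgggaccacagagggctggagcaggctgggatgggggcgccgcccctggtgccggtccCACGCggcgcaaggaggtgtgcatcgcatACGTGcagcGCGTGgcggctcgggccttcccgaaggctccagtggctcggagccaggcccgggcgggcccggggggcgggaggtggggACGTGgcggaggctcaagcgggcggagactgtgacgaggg
Egln1 (chr8:124949205-124949504, minus strand): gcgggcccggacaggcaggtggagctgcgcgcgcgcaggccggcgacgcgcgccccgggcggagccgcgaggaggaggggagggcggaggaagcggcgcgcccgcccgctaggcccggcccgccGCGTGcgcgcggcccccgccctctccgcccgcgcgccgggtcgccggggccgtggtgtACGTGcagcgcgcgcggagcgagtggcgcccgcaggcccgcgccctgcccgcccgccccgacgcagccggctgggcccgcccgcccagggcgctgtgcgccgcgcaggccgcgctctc
Slc16a3 (chr11:120948817-120949116, plus strand): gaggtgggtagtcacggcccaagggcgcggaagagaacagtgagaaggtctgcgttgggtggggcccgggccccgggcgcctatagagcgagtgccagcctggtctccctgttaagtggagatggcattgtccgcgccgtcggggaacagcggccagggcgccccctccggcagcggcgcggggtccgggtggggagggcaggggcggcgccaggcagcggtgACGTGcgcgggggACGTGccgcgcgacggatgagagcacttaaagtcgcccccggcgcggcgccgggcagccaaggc
Bnip3 (chr7:138909457-138909756, minus strand): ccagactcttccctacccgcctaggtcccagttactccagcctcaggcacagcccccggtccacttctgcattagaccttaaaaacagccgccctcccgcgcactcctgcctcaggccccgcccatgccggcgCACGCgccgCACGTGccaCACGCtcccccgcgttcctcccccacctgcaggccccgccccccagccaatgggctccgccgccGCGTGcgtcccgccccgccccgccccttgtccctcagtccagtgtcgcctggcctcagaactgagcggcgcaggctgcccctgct
Pdk1 (chr2:71872974-71873273, plus strand): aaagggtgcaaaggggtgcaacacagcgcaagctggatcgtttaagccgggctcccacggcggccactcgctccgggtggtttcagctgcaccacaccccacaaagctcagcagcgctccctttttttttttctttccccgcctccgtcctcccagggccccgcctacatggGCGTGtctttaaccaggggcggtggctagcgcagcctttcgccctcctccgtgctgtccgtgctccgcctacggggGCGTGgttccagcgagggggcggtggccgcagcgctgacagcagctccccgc
Tpi1 (chr6:124814109-124814408, minus strand): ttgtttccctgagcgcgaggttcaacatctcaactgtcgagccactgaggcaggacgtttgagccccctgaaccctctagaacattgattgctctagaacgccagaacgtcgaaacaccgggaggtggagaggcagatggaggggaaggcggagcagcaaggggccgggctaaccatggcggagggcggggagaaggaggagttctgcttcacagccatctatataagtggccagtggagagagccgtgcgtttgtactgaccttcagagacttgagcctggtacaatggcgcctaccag

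Bnip3 held 5 matches, of which the 2 of ACGTG form a single CACGTG whose matches begin 108 and 107 bases before the start. P4ha2 held 4 (107, 78 and 69 bases before the start and at base 11 after it, counting the start as 1), in a window whose start lies 829 bases from the gene start in the count table. Slc16a3 held 2 of ACGTG, 27 and 14 bases before a start that lies 587 bases from the table's. Egln1 held 2 (126 and 68 bases before) and Pdk1 2 of GCGTG (78 and 2 bases before). The Tpi1 window and the second Pdk1 window held 0. Of the 36 members 33 had a window, 48 in all, and Bnip3l, Ndrg1 and Slc2a3 had none. A match of either core was present in 36 of the 48 member windows (75.0%), in 57.8% of the 16033 windows of genes tested here and in 43.8% of all 32851 windows. ACGTG alone was in 52.1% of the member windows against 23.9% of the windows of tested genes, while GCGTG was in 24 of the 48 against 46.3% and CACGTG in 8.33% against 9.21%. The member windows were also richer in G and C, at a median of 64.0% against 59.7%. Most members were chosen as known HIF targets, so these shares describe the choice and are no result of the tumours. Of the 7 windows of the 6 members past the threshold 5 held a match (71.4%). A match is a string of letters and not a bound site.

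Among the remaining glycolytic enzymes the order of the pathway gave these values. Hk2, the inducible hexokinase of the first step, had 102 ± 31.2 CPM in MSI and 133 ± 18.7 CPM in CIN tumours (n = 8 libraries each, SD), a log2 fold change of -0.39 ± 0.20 (edgeR adjusted p = 0.277), and its ranges of 63.7 to 144 and 101 to 156 CPM overlapped. Hk1, the housekeeping hexokinase, was at 0.10 ± 0.09 (edgeR adjusted p = 0.511). Gpi1 (-0.24), Pfkl (-0.40) and Pfkp (-0.20), the isomerase and 2 phosphofructokinases, did not pass. Aldoa, the main aldolase, had 984 ± 132 and 1109 ± 84.7 CPM, a log2 fold change of -0.17 ± 0.09 (edgeR adjusted p = 0.286). The second row named Aldoa, on the same strand of chromosome 7 and upstream of the first, had 4.0 ± 2.58 and 6.21 ± 2.29 CPM (-0.66, edgeR adjusted p = 0.293), and Aldoc, the aldolase known from brain, had 0.41 (edgeR adjusted p = 0.482).

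The later steps of the pathway gave values close to each other. Pgk1 (-0.49), Pgam1 (-0.44), Eno1 (-0.50), Pkm (-0.38) and Ldha (-0.36) all missed the threshold, with edgeR adjusted p values of 0.061, 0.0511, 0.111, 0.12 and 0.0702. All 5 passed in the fit without MSI tumour library 1 with CIN micronuclei, in which 6.79% of all genes were lower. Each of the 5 passed in only 1 of the 16 fits that left out 1 library. Ldha, which turns pyruvate into lactate, had 1070, 1224 and 1494 CPM at the lowest, median and highest MSI library and 1137, 1581 and 1907 CPM in CIN tumours. The ranges overlapped, and 2 MSI libraries lay below all CIN libraries. The means were 1236 ± 144 and 1587 ± 238 CPM (SD, n = 8 each), with an SE of 0.10 on the log2 fold change. Unadjusted p was under 0.05 in 8 of the 16 glycolytic rows and in 4144 of all 18777 genes. Eno2, an enolase of neurons, was at -0.21 (edgeR adjusted p = 0.41). Gapdh was at -0.18, but it had only 7305 counts over all libraries against 331245 for Ldha, in a genome with many near-identical Gapdh pseudogenes, so its level of 29.1 and 32.8 CPM is uncertain. Eno1 had 426736 counts and its near copy Eno1b 6573. How the counting divided reads between such copies was not given in the sources used here.

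Of the regulators of flux, Pfkfb3, the kinase-rich form of the enzyme that makes the activator of phosphofructokinase, had 29.3 ± 3.95 CPM in MSI and 33.6 ± 6.49 CPM in CIN tumours (n = 8 libraries each, SD), a log2 fold change of -0.19 ± 0.13 (edgeR adjusted p = 0.408). Its relative Pfkfb4 had 26.8 ± 7.06 and 21.2 ± 5.52 CPM (0.36, edgeR adjusted p = 0.337). Slc2a1, the glucose importer GLUT1, had 141 ± 21.96 and 165 ± 20.2 CPM, -0.23 ± 0.10 (edgeR adjusted p = 0.19). Slc2a3, the importer GLUT3, was near 5 CPM in both tumour types, at 5.43 ± 1.30 and 4.97 ± 1.48 (0.13 ± 0.25, edgeR adjusted p = 0.761). The lactate exporter was the only transporter of the 3 past the threshold, and its difference from the other 2 was not tested.

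In oxygen sensing, Hif1a, the alpha subunit itself, had 175, 207 and 258 CPM at the lowest, median and highest MSI library and 206, 269 and 298 CPM in CIN tumours. Of the MSI libraries 4 lay below the lowest CIN library and 0 above the highest. The log2 fold change of -0.24 ± 0.12 did not pass (edgeR adjusted p = 0.282). Egln3, the prolyl hydroxylase PHD3, spread widely among MSI tumours, from 44.5 to 176 CPM against 61.1 to 115 CPM in CIN tumours, with a log2 fold change of 0.04 ± 0.30 (edgeR adjusted p = 0.94).

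The other HIF targets had differences on both sides of 0. Bnip3l, the close relative of Bnip3 and also a mitophagy receptor, had 135 ± 17.8 and 140 ± 9.32 CPM (SD, n = 8 each), -0.06 ± 0.08 (edgeR adjusted p = 0.665). Ndrg1, a stress-induced gene often used as a hypoxia marker, had 244 ± 75.6 and 300 ± 40.4 CPM, -0.30 ± 0.19 (edgeR adjusted p = 0.374). Car9, carbonic anhydrase IX, which acidifies the surroundings of hypoxic cells, had the most positive difference of the members: 13.3, 26.4 and 60.7 CPM at the lowest, median and highest MSI library against 8.76, 21.7 and 34.1 CPM in CIN tumours, 0.67 ± 0.37 (edgeR adjusted p = 0.317). P4ha1, the more abundant alpha subunit of the same enzyme as P4ha2, was at -0.57 ± 0.29 (edgeR adjusted p = 0.277). Ankrd37 (-0.52), Kdm3a (-0.41), a histone demethylase, and Ddit4 (-0.30), an inhibitor of mTORC1, did not pass, nor did Mxi1 (0.00), a MYC antagonist, Adm (0.05), the peptide adrenomedullin, and the lipoprotein receptor Vldlr (0.41).

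Levels of isoenzymes were compared per gene length, as the authors' FPKM (fragments per kilobase, scaled to library size). Each is given as its share of the summed FPKM of its family. The gene length is that of the count table and need not equal the length of the transcripts present. Shares and orders between genes depend on it. Bnip3 made up 38.8% ± 7.34 of Bnip3 plus Bnip3l in MSI tumours and 58.8% ± 3.92 in CIN tumours (SD, n = 8 each), and the ranges, 26.2% to 49.9% and 51.1% to 63.1%, did not overlap. P4ha2 was the minor subunit in both, at 7.28% ± 1.27 of P4ha1 plus P4ha2 in MSI and 11.62% ± 0.79 in CIN tumours, again without overlap (highest MSI share 9.23%, lowest CIN share 10.6%). Slc16a3 held 21.4% ± 11.01 of the 3 monocarboxylate transporters in MSI and 42.5% ± 7.14 in CIN tumours, with ranges of 9.40% to 38.03% and 32.6% to 51.4%. Its level was 12.4 ± 3.18 against 25.8 ± 3.12 FPKM, while Slc16a1, the transporter MCT1, had 54.0 ± 23.0 against 35.3 ± 7.09 FPKM. For Slc16a1 the log2 fold change of 0.55 did not pass (edgeR adjusted p = 0.224). Egln1 was 30.9% ± 7.44 of the 3 HIF prolyl hydroxylases in MSI and 40.7% ± 5.02 in CIN tumours, and Egln3 40.8% ± 11.2 and 36.6% ± 4.89. These shares are descriptions of levels already tested gene by gene.

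Several glycolytic enzymes were made mostly from 1 gene in both tumour types. Ldha held 98.8% ± 0.88 of lactate dehydrogenase FPKM in MSI and 99.5% ± 0.31 in CIN tumours, Pkm 97.7% and 99.1% of pyruvate kinase, Pgam1 97.6% and 97.4% of phosphoglycerate mutase and Aldoa 96.1% and 97.7% of aldolase. Eno1 held 80.7% ± 8.94 and 86.9% ± 3.62 of enolase, the rest being mostly the muscle isoenzyme Eno3. Hexokinase was shared among Hk1 (47.6% and 42.2%), Hk2 (28.3% and 36.01%) and Hk3 (23.3% and 21.3%). Slc2a1 held 91.4% and 96.0% of 4 glucose transporters, and Slc2a3 1.70% and 1.44%. Among these families the highest levels per length were those of Pkm (403 ± 57.9 and 512 ± 67.2 FPKM), Ldha (375 ± 38.6 and 467 ± 65.7 FPKM), Aldoa (342 ± 59.3 and 372 ± 28.9 FPKM) and Eno1 (278 ± 58.3 and 387 ± 55.8 FPKM). The order of these 4 by mean FPKM was the same in MSI and CIN tumours apart from the last pair, whose ranges overlapped with each other in both.

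**Figure D3:**
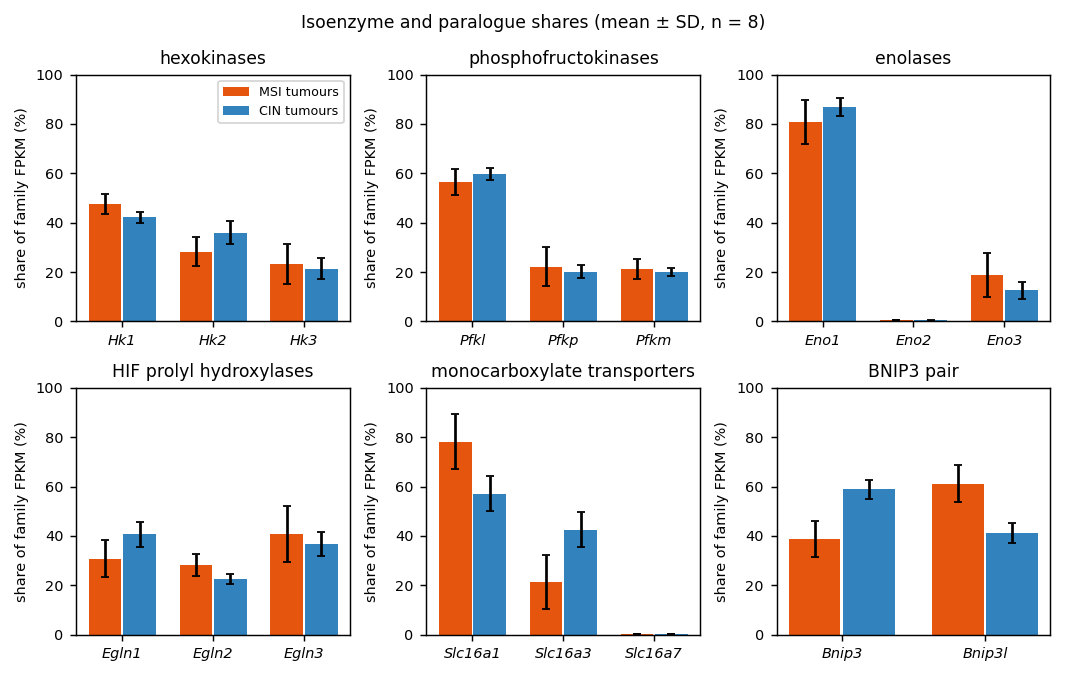
Share of the summed FPKM of each family (percent, axes from 0 to 100) in MSI and CIN tumours; bars are means and error bars SDs over 8 libraries, and the hexokinase panel leaves out genes under 1% in both. Bnip3 has 38.8% in MSI and 58.8% in CIN tumours and Slc16a3 21.4% and 42.5%, while Pfkl stays the main phosphofructokinase in both.

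The tumour difference was next split by the DNA that the dendritic cells had received. With MSI micronuclei, MSI free DNA and CIN free DNA the median log2 ratio of group means over the 37 rows was -0.343, -0.404 and -0.398, and 29 or 30 rows were negative. With CIN micronuclei it was -0.0421, with 24 rows negative, and 28 of the 37 rows had there the highest of their 4 ratios. The glycolytic enzymes gave -0.431, -0.414 and -0.416 against -0.0444. The same medians and counts over all genes are not given here. The smaller difference with CIN micronuclei is therefore not shown to be particular to the members. The ratio was negative with all 4 kinds of DNA for each of the 6 members past the threshold. It ran from -1.70 to -0.90 for P4ha2, from -0.88 to -0.39 for Egln1, from -1.39 to -0.68 for Slc16a3, from -1.51 to -0.38 for Bnip3, from -0.63 to -0.08 for Pdk1 and from -0.42 to -0.04 for Tpi1, and the value nearest 0 was always the one with CIN micronuclei.

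In rows such as Eno1 and Pkm the group means with CIN micronuclei lay outside those with the other DNA in both tumour types. Eno1 had 1710 CPM in CIN tumours, against 2093 to 2387 CPM with the other DNA. In MSI tumours Eno1 had 1599 against 1360 to 1571 CPM. Pkm had 2178 against 2641 to 2932 CPM in CIN and 2175 against 1829 to 2100 CPM in MSI tumours. In MSI tumours these means with CIN micronuclei averaged the highest and the lowest of the 8 MSI libraries. Libraries 1 and 2 had 2169 and 1029 CPM of Eno1 and 2758 and 1592.5 CPM of Pkm. Aldoc went the other way in CIN tumours, at 16.1 against 8.02 to 11.8 CPM. The group of MSI tumours with CIN micronuclei held the muscle-rich library. Its library 1 had 873 CPM of skeletal muscle and 811 CPM of colon epithelium markers and its library 2 had 22.8 and 16823 CPM, and the 2 libraries of CIN tumours with CIN micronuclei had 11.54 and 11.7 CPM of muscle markers. Against the same CIN tumours, library 2 alone gave a median log2 ratio of -0.16 over the 37 rows and library 1 alone 0.0665 (n = 1 each, no test). No member passed a test of whether its tumour difference depended on the DNA source or on the DNA form, each averaged over the other. Dependence on a single combination of source and form, such as CIN micronuclei, was not tested. In the tumour by source and tumour by form interactions 0 of 37 rows and 0 of 18777 genes passed (0%). An unadjusted p under 0.05 with edgeR was found in 285 and 159 genes. Among the members this was 1 and 0, the 1 being Pdk1, at -0.32 ± 0.14 for tumour by source (unadjusted p = 0.0404 and adjusted p = 1, edgeR).

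**Figure D4:**
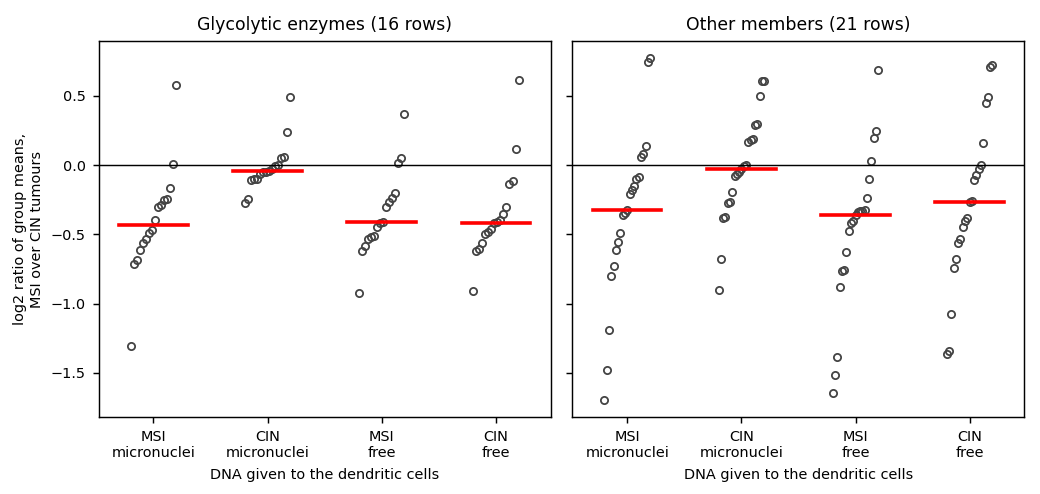
Log2 ratio of MSI over CIN tumour group means (2 libraries each) for every member row, by the DNA given to the dendritic cells, for the 16 rows of glycolytic enzymes and the 21 other rows; red lines are medians. The glycolytic enzymes lie near 0 with CIN micronuclei (median -0.0444) and between -0.431 and -0.414 at the median with the other 3 kinds of DNA.

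The source of the DNA, MSI or CIN, over all 16 libraries gave 0 of 37 member rows and 0 of 18777 genes past the threshold (0%, 209 genes with an unadjusted p under 0.05, edgeR). The form, free DNA or micronuclei, gave 0 and 0 as well (0%, 148 genes), and so did the source by form interaction (0%, 355 genes). In these 3 comparisons 0 members had an unadjusted p under 0.05, and 0 passed with DESeq2. The log2 fold change of MSI minus CIN DNA was negative in 33 rows, with a median of -0.0605, where 60.3% of all genes were negative. Free minus micronuclei was positive in 28 rows, with a median of 0.0407, where 49.6% of all genes were negative and their median was 0.000834. The standard error of Pdk1, the smallest among the members, was 0.07 in both.

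Within each tumour type the same 2 effects were also without a call, in the members and in all genes (0% in each of the 4, with edgeR). Unadjusted p was under 0.05 in 151 and 126 genes for source and form within MSI tumours and in 315 and 153 within CIN tumours, and 0 members passed with DESeq2. Within MSI tumours MSI minus CIN DNA was negative in 37 of 37 rows, with a median of -0.168 against -0.0452 over all genes, of which 62.7% were negative. The muscle-rich library is 1 of the 4 in the CIN DNA arm of that comparison. Pdk1 was at -0.23 ± 0.10 (unadjusted p = 0.0367, adjusted p = 1, edgeR), with group means of 90.2 and 95.5 CPM with MSI micronuclei and MSI free DNA and 113 and 105 CPM with CIN micronuclei and CIN free DNA. Within CIN tumours the source effect was positive in 28 rows (median 0.0571), where 50.9% of all genes were negative (median -0.00469). Free minus micronuclei within CIN tumours was positive in 33 rows (median 0.129 against 0.0125 over all genes, of which 46.2% were negative). Pdk1 again had the lowest p there, at 0.22 ± 0.10 (unadjusted p = 0.0482, adjusted p = 1, edgeR). Free minus micronuclei within MSI tumours was negative in 27 rows (median -0.0531 against -0.00495 over all genes, of which 51.4% were negative). These comparisons share libraries, members of 1 pathway are not independent of each other, and counts of signs were not tested.

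Within MSI tumours the 4 libraries numbered 1 and the 4 numbered 2 stood apart in many members, and the glycolytic genes did not move as 1 block. Pgk1, Eno1, Pkm, Pfkfb3, Slc16a3, Bnip3, Ndrg1 and P4ha1 were higher in every library numbered 1 than in every one numbered 2. Hk2, Pfkp, Aldoc, Pfkfb4, Hif1a, Car9 and Adm were lower in every one. These are descriptions of ranges of 4 against 4 libraries that also differed in colon epithelium markers. The part of those markers in the values was not tested. The share of all genes that separated in the same way is not given here, so the split is not shown to be particular to the members. P4ha1 was 187 to 303 CPM in the first set and 79.1 to 154 CPM in the second. Eno1 was 1671 to 2169 against 1029 to 1354 CPM, and Ndrg1 272 to 342 against 151 to 227 CPM. Car9 went the other way, at 13.3 to 20.4 against 32.4 to 60.7 CPM, as did Aldoc at 6.86 to 8.15 against 15.8 to 26.5 CPM and Hif1a at 175 to 198 against 215 to 258 CPM. Among CIN tumours Hk2 alone separated the libraries by number, at 101 to 140 CPM in those numbered 1 and 141 to 156 CPM in those numbered 2.

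Egln1, Pdk1 and Tpi1 overlapped between the numbers in MSI tumours. Egln1 was 73.6 to 95.5 CPM in libraries numbered 1 and 80.7 to 90.8 CPM in those numbered 2. Slc16a3 separated both ways: 67.5 to 102 CPM in the first and 40.8 to 63.0 CPM in the second set of MSI tumours, all below the 108 CPM of the lowest CIN library. P4ha2, at 18.3 to 30.0 and 12.2 to 19.4 CPM, overlapped between the sets and was below the lowest CIN library in both. In a fit with the skeletal muscle and colon epithelium scores as covariates, all 6 members past the threshold remained past it. That fit called 11 members and 4.32% of all genes tested lower. The log2 fold changes (edgeR) were -1.26 for P4ha2, -0.59 for Egln1, -0.99 for Slc16a3, -1.12 for Bnip3, -0.39 for Pdk1 and -0.29 for Tpi1. Tpi1 passed narrowly (edgeR adjusted p = 0.0483).

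**Figure D5:**
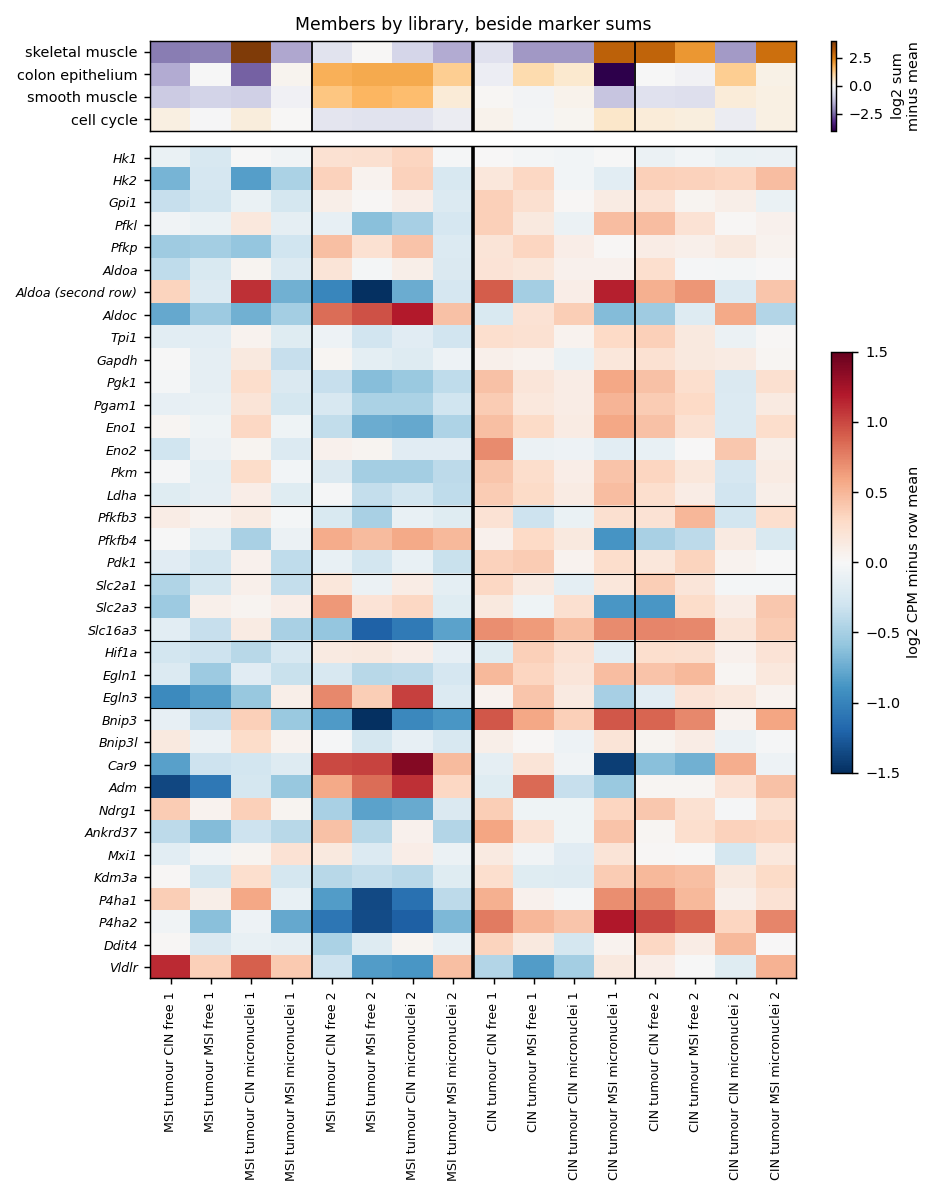
Log2 CPM of each of the 37 rows minus its mean over the 16 libraries (lower panel, red above and blue below the mean, rows in the order of their roles) under the log2 summed level of 4 marker lists minus its mean (upper panel, orange above and purple below). Libraries are ordered by tumour type and, within it, by number; Car9, Aldoc and Adm are red in the MSI libraries numbered 2, where Bnip3, P4ha1 and Slc16a3 are blue.

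Genes of the same pathways that are not members were counted from lists chosen by role. Of 28 other glycolysis genes tested, 2 were lower in MSI tumours and 0 higher, where 3.48% and 2.32% of all genes tested were. Pgm2, a phosphoglucomutase that feeds glycogen glucose into the pathway, had 73.1 ± 11.51 and 113 ± 15.2 CPM (SD, n = 8 each), a difference of -0.63 ± 0.10 (edgeR adjusted p = 0.00509). Pdk3, another pyruvate dehydrogenase kinase, had 28.1 ± 2.90 and 38.4 ± 5.78 CPM, -0.45 ± 0.11 (edgeR adjusted p = 0.0415). The list as a whole was positive in 19 and negative in 9 genes, with a median of 0.143. The muscle isoenzymes Pfkm (-0.24), Eno3 (0.12) and Pgam2 (-0.52) did not pass (edgeR adjusted p = 0.402, 0.765 and 0.347).

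Of 20 other genes of the HIF machinery 0 passed and 4 had an unadjusted p under 0.05 (edgeR), as had 4144 of all 18777 genes. Arnt, the stable partner of the alpha subunits, was at -0.21 ± 0.09, Epas1, the alpha subunit HIF-2 alpha, at 0.79 ± 0.47 and Vhl, which recognises the hydroxylated alpha subunit, at -0.03 ± 0.08 (edgeR adjusted p = 0.187, 0.347 and 0.854). Of 41 further HIF targets 6 were lower and 1 higher, against 3.48% and 2.32% of all genes tested. Vegfa, the angiogenic growth factor, was at -0.95 ± 0.16 (edgeR adjusted p = 0.00857), with 118 to 262 CPM in MSI and 279 to 426 CPM in CIN tumours. Insig2 (-0.63), a regulator of sterol synthesis, Loxl2 (-0.59), a collagen cross-linking enzyme, and Pdgfb (-0.39), a growth factor, fell as well (edgeR adjusted p = 0.011, 0.0397 and 0.0218), and so did the histone demethylase Kdm4b (-0.39, edgeR adjusted p = 0.0226). Stc1, the secreted glycoprotein stanniocalcin, was higher: 5.11 to 11.47 CPM in MSI against 3.01 to 4.98 CPM in CIN tumours, 1.02 ± 0.20 (edgeR adjusted p = 0.0143).

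Genes that carry pyruvate into the mitochondria and the citric acid cycle were mostly positive. Of 18 tested 0 passed, 5 had an unadjusted p under 0.05 (edgeR), 16 were positive and the median was 0.197. Of all 18777 genes 4144 had such a p, 44.3% were negative and the median was 0.0555. Pdhx, a subunit of the pyruvate dehydrogenase complex, had 23.6 ± 2.35 CPM in MSI and 18.2 ± 2.64 CPM in CIN tumours (n = 8 libraries each, SD), 0.38 ± 0.10 (edgeR adjusted p = 0.0529), and was chosen here after its value was seen. In the other 9 comparisons 0 of these pathway genes passed. Markers of other cell types in the tumour comparison were mostly below the threshold, which 3.48% of all genes tested passed as lower and 2.32% as higher. Skeletal muscle genes were negative in 15 of 15 tested with 0 past it, colon epithelium genes positive in 16 of 16 with 0 past it, and of 20 cell cycle genes 2 were lower (summed level 2168 to 4036 CPM in MSI and 2609 to 4670 CPM in CIN tumours). Endothelial genes had the most calls, with 5 of 10 higher in MSI tumours and a summed level of 123 to 191 CPM against 80.8 to 158 CPM. Their part in the differences of the members was not tested.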

How the data were processed

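For 16 libraries in 8 groups, grouped by sample title, the authors deposited whole-number counts and FPKM values for each gene. fastp, HISAT2 2.0.5, featureCounts 1.5.0-p3 and the build GRCm39 are named in the submitters' processing notes. The coordinates in the count table instead matched GRCm38: 35 of the 37 member rows, and 53499 of 54409 identifiers shared with GENCODE M21, were identical. No strand setting was given in the sources used here, so overlapping genes on opposite strands cannot be told apart. Of the columns, 4 in each file matched no sample and were not used. The deposited FPKM equalled the counts over gene length and a total of 0.899 to 1.08 times the count sum.

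The deposited counts were fitted with edgeR 4.0.16 (R 4.3.3), using TMM scaling, filterByExpr by group (18777 genes kept) and a mean for each group. Robust quasi-likelihood tests were adjusted by Benjamini-Hochberg over all genes tested, with a threshold of 0.05, and were tested on simulated counts. Interactions are differences of differences. The biological coefficient of variation was 0.43. In every group the chi-square of the 2 libraries exceeded counting noise (21.4 to 238 per degree of freedom). The closing section gives the alternatives. The members and lists were chosen with earlier results of these data known. Named were members past the threshold, 13 set members and, for each pathway list, up to 6 genes past it, with 7 set genes. A gene past the threshold on 1 of these lists is counted but not reported here by name.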

Additional observations from a re-analysis of the deposited data

How the results depend on the processing

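Beside each count of members lower in MSI tumours stands the share of all genes tested that were lower in the same fit. The count was 6 (3.48%) as reported, 14 (6.93%) with DESeq2 1.42.0, 10 (2.42%) with no low-count filter, 11 (5.81%) in an additive model, 11 (4.32%) with the skeletal muscle and colon epithelium scores as covariates, and 2 (0.527%) in an additive model without the 5 muscle-rich libraries. Leaving out 1 library gave 4 to 13, the 13 (6.79%) without MSI tumour library 1 with CIN micronuclei. With the replicate number as a block it was 12 (5.4%), Pgk1, Pgam1, Eno1, Pkm and Ldha among them, and with separate blocks for MSI and CIN tumours 18 (10.7%). The numbers do not pair the samples in the labels: deviations of same-numbered libraries correlated from -0.509 to 0.768, over 0.1 in 16 of 28 pairs of groups, in 6 of 6 among MSI and 2 of 6 among CIN tumours. Chosen after seeing the data, libraries numbered 2 alone gave 15 lower (16.5%) and 3 higher (Aldoc, Pfkfb4 and Car9), and those numbered 1 alone 4 lower (1.13%). The cause of these changes was not tested. Members called higher were 0 in every other alternative run, and members called in the other 9 comparisons were 0 in every alternative run. Egln1 and Slc16a3 passed in 26 of 26 alternatives, P4ha2 and Pdk1 in 24, Bnip3 in 21 and Tpi1 in 8, and 0 of the 6 changed direction. Of the members' fold changes under an alternative 867 kept their side of the threshold, 68 passed it newly and 27 no longer did. Isoenzyme shares moved by less than 1 SD when computed from TMM-scaled counts per length.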
